A study of Homo sapiens with 6 samples.

Results

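The 10 genes described here encode core enzymes and protein regulators of polyamine metabolism, and SAT2, a relative of SAT1 counted here with catabolism. The full list is ODC1, AMD1, SRM, SMS, SAT1, SAT2, SMOX, PAOX, OAZ1 and AZIN1. They were chosen by gene name out of 37923 genes in the count table, each name matched 1 row, and all 10 passed the filter on low counts. The study sequenced RNA of 6 samples, 3 Control and 3 ENZ, all labelled as the colorectal carcinoma cell line RKO. By the series design, ENZ cells received compound A3, which degrades the histone demethylase LSD1, RNA was taken at 48 h, and the samples of a group are biological replicates. The sources used here do not say what ENZ stands for, what the Control cells received or whether replicates were separate cultures. The p-values therefore measure only the spread between these samples, which may be technical.

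The labelled cell type was checked first, because the libraries went against it. Levels here are CPM, counts scaled to a library total of 1e+06. Among the 10 colorectal epithelium markers analysed, 6 averaged under 1 CPM, among them KRT20 and CDX1, each with 1 read over all 6 libraries, while MUC13 and VIL1 were the highest of the list. Of 11 prostate luminal markers, 1 was under 1 CPM, and high levels were those of FOLH1 (626 CPM in Control, 857 in ENZ) and STEAP2 (274 and 131). The summed level of the prostate markers ran from 1716 to 1759 CPM in Control and from 1837 to 1868 in ENZ, against 138 to 144 and 179 to 181 for the colorectal markers. Leukocyte markers summed to at most 7.41 CPM in any library and endothelial markers to at most 0.149. Of 6 fibroblast markers 3 were under 1 CPM, and the list summed to 77.6 to 86.8 CPM in Control and 40.1 to 43.0 in ENZ, with LUM at a mean of 67.4 and 29.2. Their part in the results below was not tested. KDM1A, which encodes LSD1, had 111, 109.7 and 113 scaled CPM in Control and 105, 109.8 and 113 in the ENZ libraries (log2 fold change −0.02, 95% confidence interval −0.11 to 0.06). A degrader acts on the protein, so this transcript is no check of the treatment. Results are therefore given as differences between libraries labelled ENZ and Control.

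Polyamines (putrescine, spermidine and spermine) are small cations that bind nucleic acids and are needed for growth. Ornithine decarboxylase (ODC1) makes putrescine, S-adenosylmethionine decarboxylase (AMD1) supplies the aminopropyl groups, and the synthases SRM and SMS add them to give spermidine and spermine. Breakdown runs through acetylation by SAT1 followed by oxidation by PAOX, or through direct oxidation of spermine by SMOX, which releases hydrogen peroxide. Antizyme (OAZ1) binds ODC1 and sends it to the proteasome, and antizyme inhibitor (AZIN1) captures antizyme and so spares ODC1. In colorectal epithelium ODC1 is a known target of MYC, prostate epithelium is known for very high polyamine output, and SMOX and PAOX belong to the same family of FAD-dependent amine oxidases as LSD1.

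The member transcripts called lower in ENZ were those of the first enzyme of synthesis and of the aminopropyl donor enzyme. OAZ1 and AZIN1, the regulators of ODC1 protein among the members, were also called lower. ODC1 fell by 15.9%, OAZ1 fell by 16.7%, AMD1 fell by 12.9% and AZIN1 fell by 11.8%, each called by edgeR's quasi-likelihood test. In this fit no member was called higher, and none of the 4 genes listed as catabolic (SAT1, SAT2, SMOX and PAOX) was called. With GC and length offsets, described below, AMD1 and AZIN1 lost their calls. SRM was then called lower, and SMS and SAT1 higher. A gene was called at a Benjamini-Hochberg adjusted p under 0.05 over the 18581 genes tested. The share of members called, 4 of 10, lies near the background, since 39.8% of all tested genes were called in either direction and 19.3% were called lower. The median log2 fold change was −0.08 over the members and −0.01 over all tested genes, and the median absolute change was 0.19 and 0.20. On CPM scaled with TMM factors the groups did not overlap in 7 members, 6 lower and 1 higher in ENZ, against 49.3% of all tested genes in either direction and 24.0% lower in ENZ. No member passed an absolute log2 fold change of 1, the limit named in the series design, which 2.98% of tested genes passed together with the adjusted p. In bulk RNA, fewer cells with a transcript and less of it per cell cannot be told apart.

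**Figure D1:**
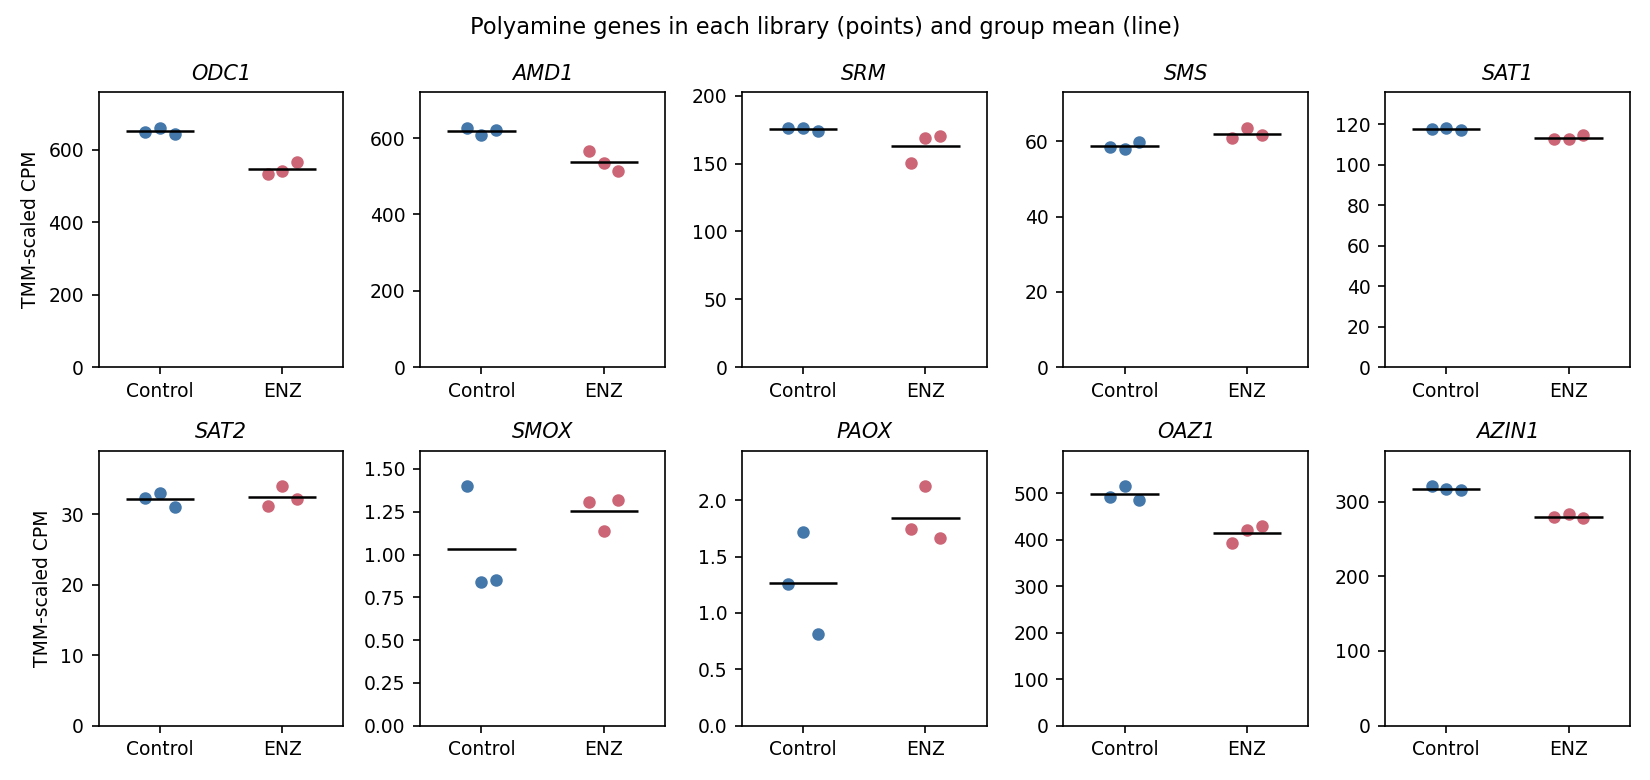
Level of each polyamine gene in each library, as CPM scaled with TMM factors (vertical axes start at 0 and differ between panels); points are the 3 libraries of a group and lines the group means. The ENZ points of ODC1, AMD1, OAZ1 and AZIN1 lie below all Control points, whereas the points of SAT2, SMOX and PAOX overlap between groups.

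Levels per length are given first, in FPKM (counts per kilobase of gene length, scaled for the library total). In Control, ODC1 was the most abundant transcript of the pathway at 236 ± 2.43 FPKM (SD, n = 3), above 99.4% of tested genes by its mean over all libraries. OAZ1 followed at 146 ± 3.96, then SRM at 93.7 ± 0.723 and AMD1 at 61.3 ± 1.24. AZIN1 (52.3 ± 0.563), SAT1 (47.9 ± 0.211), SMS (29.3 ± 0.558) and SAT2 (19.7 ± 0.546) came next, and no 2 neighbours among these 8 genes overlapped between libraries in Control. The oxidase genes were far lower, PAOX at 0.567 ± 0.201 and SMOX at 0.354 ± 0.111 FPKM, and these 2 overlapped in Control. The level of PAOX is uncertain, because a readthrough gene shares 1373 of its 2250 exonic bases. In ENZ the order was the same except that SAT1 and AZIN1, both at 45.1 FPKM, could not be ordered. The lengths behind these values equalled, for 8 of the 10 genes, the exonic bases of all annotated transcripts in GENCODE release 44 combined, such as 10193 for AMD1 and 3436 for OAZ1, so a gene that uses mainly short transcripts has its level understated.

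**Figure D2:**
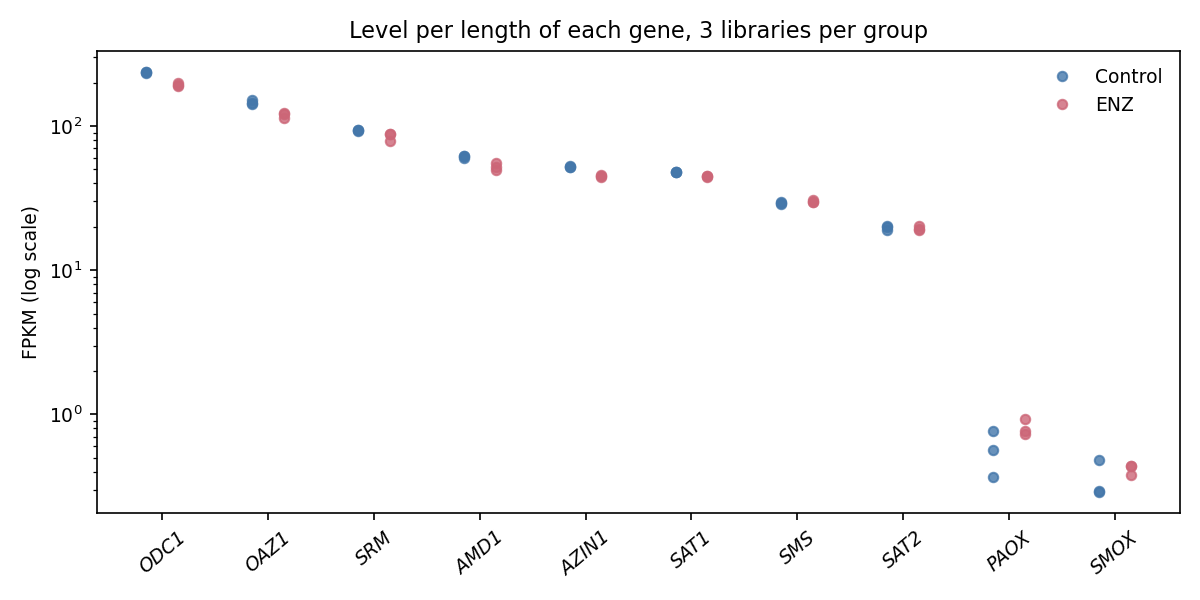
FPKM of each polyamine gene on a log axis, ordered by the Control mean, with the 3 libraries of each group as points. ODC1 stands highest, near 236 FPKM in Control, and PAOX and SMOX lie below 1 FPKM in every library.

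Among the synthesis enzymes, ODC1 (ENSG00000115758, chromosome 2 from 10439968 to 10448327, GRCh38) had 648, 660.5 and 644 scaled CPM in the Control libraries and 532, 542 and 568 in the ENZ libraries. CPM scaled with TMM factors, as in the test, are used for differences here and below. All 3 ENZ libraries lay below all 3 Control libraries, with means of 651 ± 8.67 and 547 ± 18.3 (SD, n = 3). The log2 fold change was −0.25 ± 0.03 (SE; edgeR adjusted p = 4.62e-06), and 41.0% of tested genes changed by at least as much in absolute terms.

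AMD1 (ENSG00000123505, chromosome 6 from 110874770 to 110898879) had 627, 607 and 621 scaled CPM in Control and 565, 535 and 515 in ENZ. The groups did not overlap, and the ENZ libraries spread more widely than the Control libraries. Means were 618 ± 10.1 and 539 ± 25.4, a log2 fold change of −0.20 ± 0.04 (edgeR adjusted p = 1.47e-04). The call ended with offsets for the GC content and length of transcripts, described below.

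SRM (ENSG00000116649, chromosome 1 from 11054584 to 11060020) had 176, 176 and 174 scaled CPM in Control and 150.4, 169 and 170.3 in ENZ. ENZ replicate 1 was the lowest, and the groups did not overlap. Its log2 fold change of −0.10 ± 0.04 (interval −0.20 to −0.01) missed the threshold (edgeR adjusted p = 0.0620). Without ENZ replicate 1 it was −0.05, and without ENZ replicate 3 it was −0.13 and called (adjusted p = 0.0226).

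SMS (ENSG00000102172, chromosome X from 21940709 to 21994837), the synthesis gene with a positive estimate, had 58.4, 57.9 and 59.8 scaled CPM in Control and 60.9, 63.5 and 61.5 in ENZ. The ENZ libraries were all above the Control libraries on this scale but overlapped them on library totals alone. A log2 fold change of 0.08 was estimated (interval −0.02 to 0.18; edgeR adjusted p = 0.193). The ratio of SRM to SMS per length was 3.23, 3.25 and 3.11 in Control and 2.64, 2.85 and 2.96 in ENZ, lower in each ENZ library than in any Control library, and was not tested.

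The sequences just before the transcription starts of ODC1, AMD1 and OAZ1 are shown because these genes fell together in ENZ. They are the last 100 bases before the start, 5′ to 3′ on the gene's strand, from RefSeq (GRCh38.p14), and the TATA box core TATAA is in capitals where the last 50 bases hold it on either strand. They lie at chr2:10448328-10448427 (minus strand), chr6:110874684-110874783 (plus strand) and chr19:2269386-2269485 (plus strand), each upstream of a RefSeq start of the gene. ODC1 and AMD1 have further RefSeq starts.
ODC1: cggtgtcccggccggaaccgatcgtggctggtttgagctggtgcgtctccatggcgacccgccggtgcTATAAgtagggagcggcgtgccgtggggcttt
AMD1: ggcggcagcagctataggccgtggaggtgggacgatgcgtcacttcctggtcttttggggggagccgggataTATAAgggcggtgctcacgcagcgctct
OAZ1: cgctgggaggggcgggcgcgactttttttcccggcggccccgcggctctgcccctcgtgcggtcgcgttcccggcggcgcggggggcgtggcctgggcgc
TATAA began 32 bases before this ODC1 start and 28 before this AMD1 start. The last 50 bases before the other ODC1 start (10448012) and before an AMD1 start further upstream (110814617) did not hold it. It was not in the last 50 bases for OAZ1, SRM, SMS, SAT1 or SAT2 either. By window, it was found in the last 50 bases of 3 of the 11 member windows and of 6.08% of the 35116 windows in the table. This motif was searched for after the sequences had been seen. The last bases of the AMD1 window lie inside the GENCODE gene, which starts before the RefSeq start used here.

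The E-box CACGTG, the site that MYC and its partners bind, was found in windows of ODC1 and SRM among the 7 members with entries (SMOX, PAOX and AZIN1 have none). By window, it was in 2 of the 11 member windows and in 6.34% of all windows of 250 bases before a start. Both sites are printed with 12 bases on either side and the E-box in capitals, since 2 members of the synthesis arm hold this motif. The first lies 29 bases before a second RefSeq start of ODC1, at chr2:10448024-10448053 in an intron of the GENCODE gene, and the other 199 bases before the SRM start, at chr1:11060200-11060229, upstream of the gene (both minus strand).
ODC1: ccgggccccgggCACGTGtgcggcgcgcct
SRM: ccggccgggcccCACGTGgcccctggagcg
The GC box GGGCGG, a site of SP1-type factors, was found on either strand in windows of 5 of the 7 members (AMD1, OAZ1, ODC1, SMS and SRM). By window, it was in 8 of the 11 member windows and in 42.6% of all windows. The steroid receptor half-site TGTTCT was found in SAT2 alone among these members, in 2 of the 11 member windows, and in 12.4% of all windows. The cAMP response element TGACGTCA (1.65% of all windows), the ATF4-type motif TGATGNAAN (3.13%) and the polyamine-responsive motif TATGACTAA (0.0826%) were in no member window, each searched on both strands. A match is a run of letters in a window and no evidence of binding.

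Both regulators of ODC1 protein among the members fell in ENZ. OAZ1 (ENSG00000104904, chromosome 19 from 2269509 to 2273490) had 491, 514 and 486 scaled CPM in Control and 393, 419.8 and 430.2 in ENZ. The groups did not overlap, with means of 497 ± 15.2 and 414 ± 19.2. Its log2 fold change was −0.26 ± 0.04 (edgeR adjusted p = 9.08e-06), beside −0.25 for ODC1, whose product antizyme removes. The ratio of OAZ1 to ODC1 per length overlapped between the groups, at 0.615, 0.633 and 0.613 in Control and 0.5997, 0.629 and 0.616 in ENZ. This ratio is not adjusted for GC content, and with the GC and length offsets described below OAZ1 fell by more than ODC1. Translation of OAZ1 needs a ribosomal frameshift that polyamines promote, so the transcript does not give the amount of antizyme.

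AZIN1 (ENSG00000155096, chromosome 8 from 102826111 to 102893864) had 320.3, 317 and 315 scaled CPM in Control and 279, 283 and 278 in ENZ. The groups did not overlap, with means of 317 ± 2.61 and 279.9 ± 2.66. Its log2 fold change was −0.18 ± 0.03 (edgeR adjusted p = 1.85e-04), and the call ended with the GC and length offsets. MAILR, a long noncoding gene on the opposite strand, overlaps AZIN1 without a shared exonic base and held 1.90% as many counts.

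None of the 4 catabolic genes was called by edgeR, DESeq2 or limma-voom, and 1 of them, PAOX, had an unadjusted p under 0.05 in edgeR. SAT1 (ENSG00000130066, chromosome X from 23783173 to 23786210), the rate-limiting acetyltransferase of breakdown and a p53 target linked to ferroptosis, had 117.8, 118.1 and 117.0 scaled CPM in Control and 112.8, 112.4 and 114.8 in ENZ. The ENZ libraries were slightly lower without overlap, and the log2 fold change of −0.05 had an interval from −0.14 to 0.03 (edgeR adjusted p = 0.296). SAT1 was called in opposite directions by alternatives, at 0.12 with GC and length offsets (adjusted p = 0.00427) and at −0.09 on filtered log2(FPKM + 1) values (adjusted p = 0.0256).

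SAT2 (ENSG00000141504, chromosome 17 from 7626234 to 7627876), a relative of SAT1 that acetylates thialysine rather than polyamines, had 32.3, 32.9 and 31.1 scaled CPM in Control and 31.2, 33.9 and 32.2 in ENZ. The groups overlapped. Its log2 fold change was 0.01 (interval −0.11 to 0.14; edgeR adjusted p = 0.869).

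SMOX (ENSG00000088826, chromosome 20 from 4120980 to 4187747) had 40, 23 and 23 counts in Control and 39, 30 and 38 in ENZ. Control replicate 1 was the highest library and the other Control libraries were the lowest, so the groups overlapped. At this depth the log2 fold change of 0.28 had an interval from −0.24 to 0.80 (edgeR adjusted p = 0.402). Without Control replicate 1 it was 0.57, still not called (adjusted p = 0.122).

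PAOX (ENSG00000148832, chromosome 10 from 133379261 to 133391694) had 36, 47 and 22 counts in Control and 52, 56 and 48 in ENZ. Every ENZ library had more reads than any Control library, but on the scaled level the groups overlapped, at 1.26 ± 0.452 and 1.84 ± 0.245 CPM. The log2 fold change was 0.54 (interval 0.05 to 1.02; edgeR adjusted p = 0.0729). It was 0.31 without Control replicate 3, the lowest library, and a called 0.82 (adjusted p = 0.0164) without Control replicate 2. A readthrough gene, ENSG00000254536, shares 1373 of the 2250 exonic bases of PAOX, so reads of the pair are uncertain. That gene had 69, 59 and 46 counts in Control and 49, 51 and 54 in ENZ, with a log2 fold change of −0.21 (interval −0.60 to 0.18). Summed, the pair had 105, 106 and 68 counts in Control and 101, 107 and 102 in ENZ.

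Which members besides ODC1 and OAZ1 were called depended on the setting. The calls of AMD1 and AZIN1 were lost only with offsets for GC content. Across tested genes, fold changes were higher at higher GC content (Spearman's rho = 0.34 over 18540 genes, which are not independent replicates). AMD1 and AZIN1 have the lowest GC content of the members in their longest transcripts, 39.1% and 38.1%, and OAZ1 and SRM are among the highest, 61.2% and 63.7%. ODC1 lies between at 47.8%.

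With offsets per library for GC content and length, OAZ1 fell by 0.38 (adjusted p = 1.82e-12) and ODC1 by 0.22 (adjusted p = 1.42e-07) on the log2 scale. SRM then passed the threshold, at −0.19 (adjusted p = 2.34e-05), and so did SMS, at 0.21 (adjusted p = 1.07e-04). AMD1 was at −0.04 (interval −0.09 to 0.02) and AZIN1 at 0.01 (interval −0.06 to 0.08), both without a call. Under these offsets 5 members were called, 3 lower and 2 higher, against a background of 16.8% called lower and 26.3% called higher. ODC1 and OAZ1 were the members called lower in all 19 alternatives tried. AMD1 and AZIN1 were each called in 17 of 19, the exceptions being the 2 with GC offsets. The offsets remove every difference between libraries that goes with GC content, whatever its source, and the source was not tested.

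**Figure D3:**
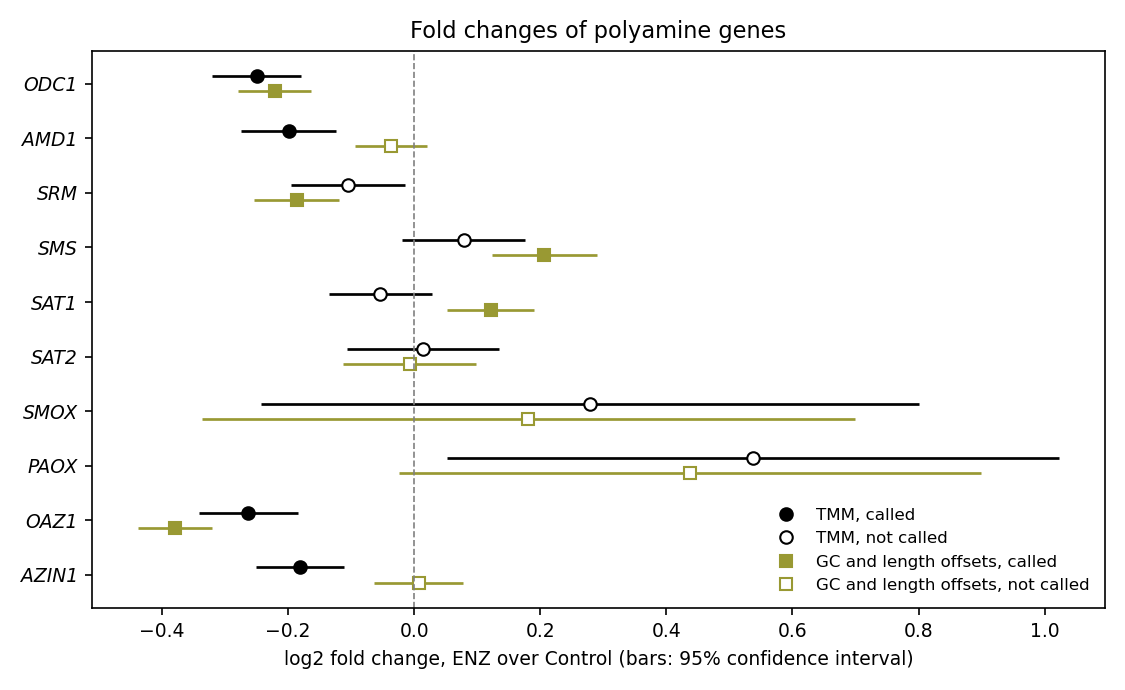
Log2 fold change of each polyamine gene, ENZ over Control, with 95% confidence intervals, as reported (circles) and with GC and length offsets (squares); filled symbols have an adjusted p under 0.05. ODC1 and OAZ1 are filled and below 0 in both fits, AMD1 and AZIN1 move to 0 with the offsets, and the intervals of SMOX and PAOX are the widest.

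**Figure D4:**
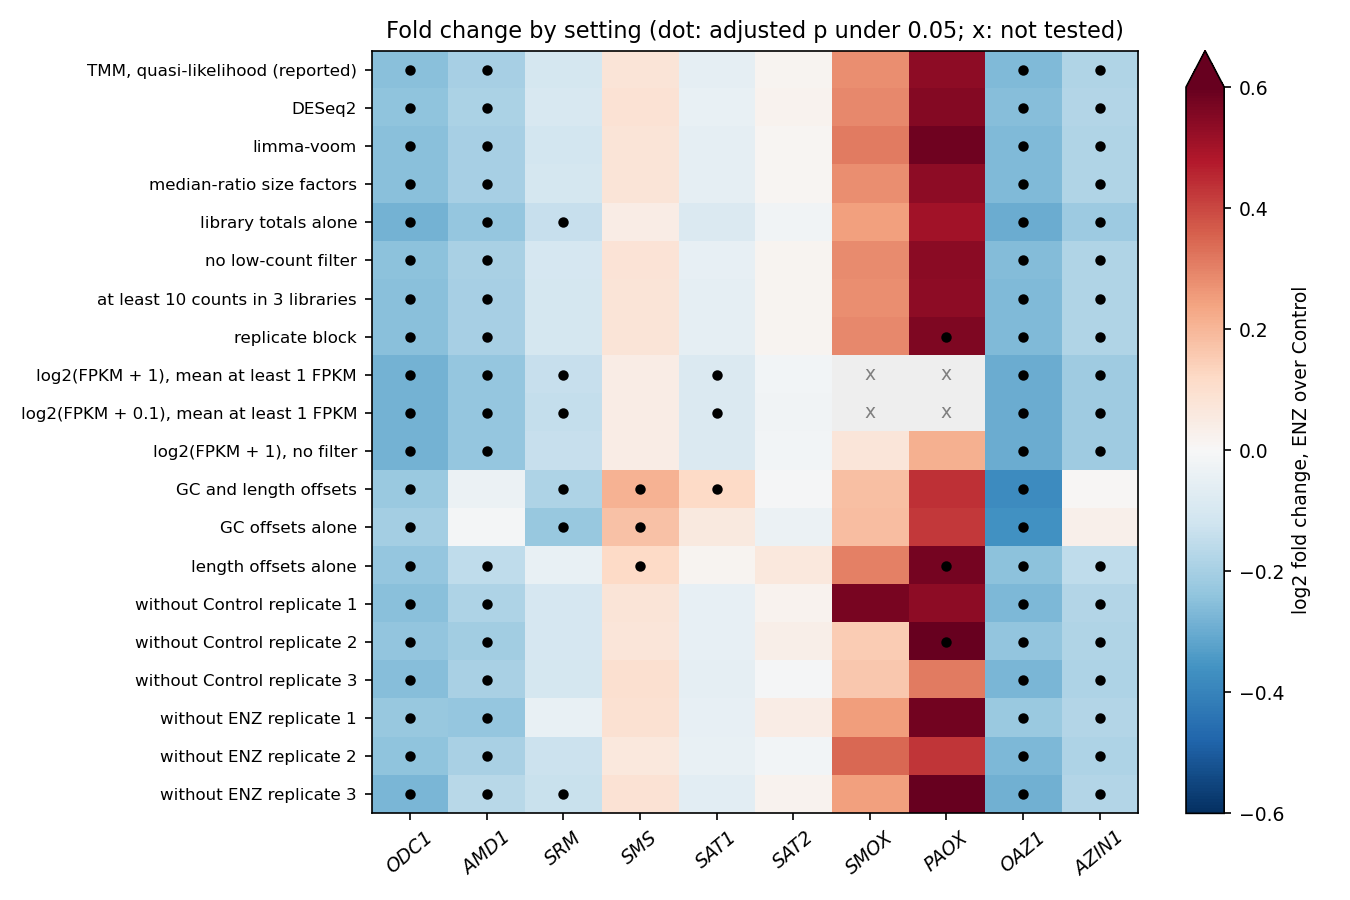
Log2 fold change (colour) of each polyamine gene under the reported fit (top row) and 19 alternatives; dots mark an adjusted p under 0.05 and crosses genes not tested under that setting. The columns of ODC1 and OAZ1 hold a dot in every row, those of AMD1 and AZIN1 in all rows but the 2 with GC offsets, and SAT2 and SMOX in none.

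Of 35 further genes around the pathway, from 5 lists, 30 passed the low-count filter, and 8 were called, 3 higher and 5 lower. That share, 26.7%, compares with the 39.8% of all tested genes. With GC and length offsets 16 were called, 8 in each direction, beside 26.3% (higher) and 16.8% (lower) of all tested genes with these offsets. In S-adenosylmethionine supply and the salvage of methylthioadenosine, the by-product of spermidine and spermine synthesis, 2 of 8 genes fell and 1 rose, a share near that of all tested genes. With GC and length offsets 7 of the 8 were called, 5 higher and 2 lower. APIP, the dehydratase of that salvage, had 33.7, 35.6 and 35.9 scaled CPM in Control and 24.1, 22.7 and 22.0 in ENZ, and fell by 0.61 ± 0.06 on the log2 scale (edgeR adjusted p = 6.39e-08). ADI1, the dioxygenase of a later step, fell by 0.32 ± 0.04 (84.5 ± 1.53 to 67.6 ± 0.360 scaled CPM; adjusted p = 4.26e-06). Both stayed called in all 19 alternatives. MTAP, the phosphorylase that opens the salvage route, had a log2 fold change of 0.01 (interval −0.09 to 0.10), and a called 0.17 with GC and length offsets (adjusted p = 6.71e-04). MAT1A, the liver form of S-adenosylmethionine synthetase, rose by 0.92 ± 0.24 from a low level (21, 28 and 20 counts in Control and 42, 46 and 46 in ENZ; adjusted p = 0.00379), a call lost on unfiltered log2(FPKM + 1) values (adjusted p = 0.0768). MAT2A, the form found outside the liver, was far more abundant at 261 ± 2.49 and 276 ± 2.07 scaled CPM, and its log2 fold change of 0.08 missed the threshold (adjusted p = 0.0613). MAT2A was called by DESeq2 (adjusted p = 0.0475), without ENZ replicate 1 (adjusted p = 0.0467), and with offsets for length alone (adjusted p = 0.0336), for GC alone (adjusted p = 5.94e-05) and for both (0.14, adjusted p = 1.44e-04).

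Of 7 tested transport genes 2 rose and 1 fell, a share of 42.9% beside the 39.8% of all tested genes. ATP13A3, a polyamine-importing ATPase, fell by 0.32 ± 0.06 (288, 263 and 277 scaled CPM in Control, 243, 219 and 202 in ENZ; edgeR adjusted p = 0.00121), and fell by 0.12 with GC and length offsets, at a GC content of 37.2%. That call was lost on unfiltered log2(FPKM + 1) values (adjusted p = 0.0507). GPC1, a heparan sulfate proteoglycan linked to polyamine uptake, rose by 0.41 ± 0.07 (16.1 ± 0.0908 to 21.5 ± 1.03 scaled CPM; adjusted p = 6.34e-05), and by 0.22 with those offsets. The organic cation transporter SLC22A3 rose by 0.30 ± 0.09 (adjusted p = 0.00929), a call lost without Control replicate 1 (adjusted p = 0.0717) and on unfiltered log2(FPKM + 1) values (adjusted p = 0.124).

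No gene of hypusination, the modification of EIF5A made from spermidine, was called by edgeR, DESeq2 or limma-voom, or had an unadjusted p under 0.05, among 4 tested. EIF5A itself was abundant, at 868 ± 6.94 and 865 ± 38.0 scaled CPM, with a log2 fold change of −0.01 (interval −0.08 to 0.07). The count of DHPS, which starts the modification, is uncertain because 1157 of its 2984 exonic bases are shared with a readthrough gene. Other regulators and ornithine supply also had no call among 7 tested by edgeR, DESeq2 or limma-voom, with 1 unadjusted p under 0.05, that of AGMAT. Of the relatives of OAZ1 and AZIN1 in this list, OAZ2 had a log2 fold change of −0.09 (edgeR adjusted p = 0.163). OAZ3 was at 0.04 (edgeR adjusted p = 0.826) and AZIN2 at −0.05 (edgeR adjusted p = 0.910). On library totals alone OAZ2 was called lower, at −0.12 (edgeR adjusted p = 0.0451). OAT, which links ornithine to glutamate, had 229 ± 2.01 and 234 ± 3.34 scaled CPM (log2 fold change 0.03, interval −0.04 to 0.10). With GC and length offsets OAT was called at 0.21 (adjusted p = 2.83e-06), and so was DOHH, the second enzyme of hypusination, at −0.18 (adjusted p = 0.00394).

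Of 4 tested relatives of SMOX and PAOX among the FAD-dependent amine oxidases, 2 fell, where 19.3% of all tested genes were called lower. MAOA, a mitochondrial monoamine oxidase, had 38.3, 40.8 and 40.8 scaled CPM in Control and 26.97, 28.02 and 30.5 in ENZ. It fell by 0.49 ± 0.06 on the log2 scale (edgeR adjusted p = 1.25e-06), and fell by 0.33 with GC and length offsets. MAOB, its close relative, had 29, 21 and 27 counts in Control and 2, 3 and 5 in ENZ. Its log2 fold change was −2.93 (interval −3.81 to −2.06; adjusted p = 9.19e-06), with few reads behind it. KDM1A and its relative KDM1B were not called.

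**Figure D5:**
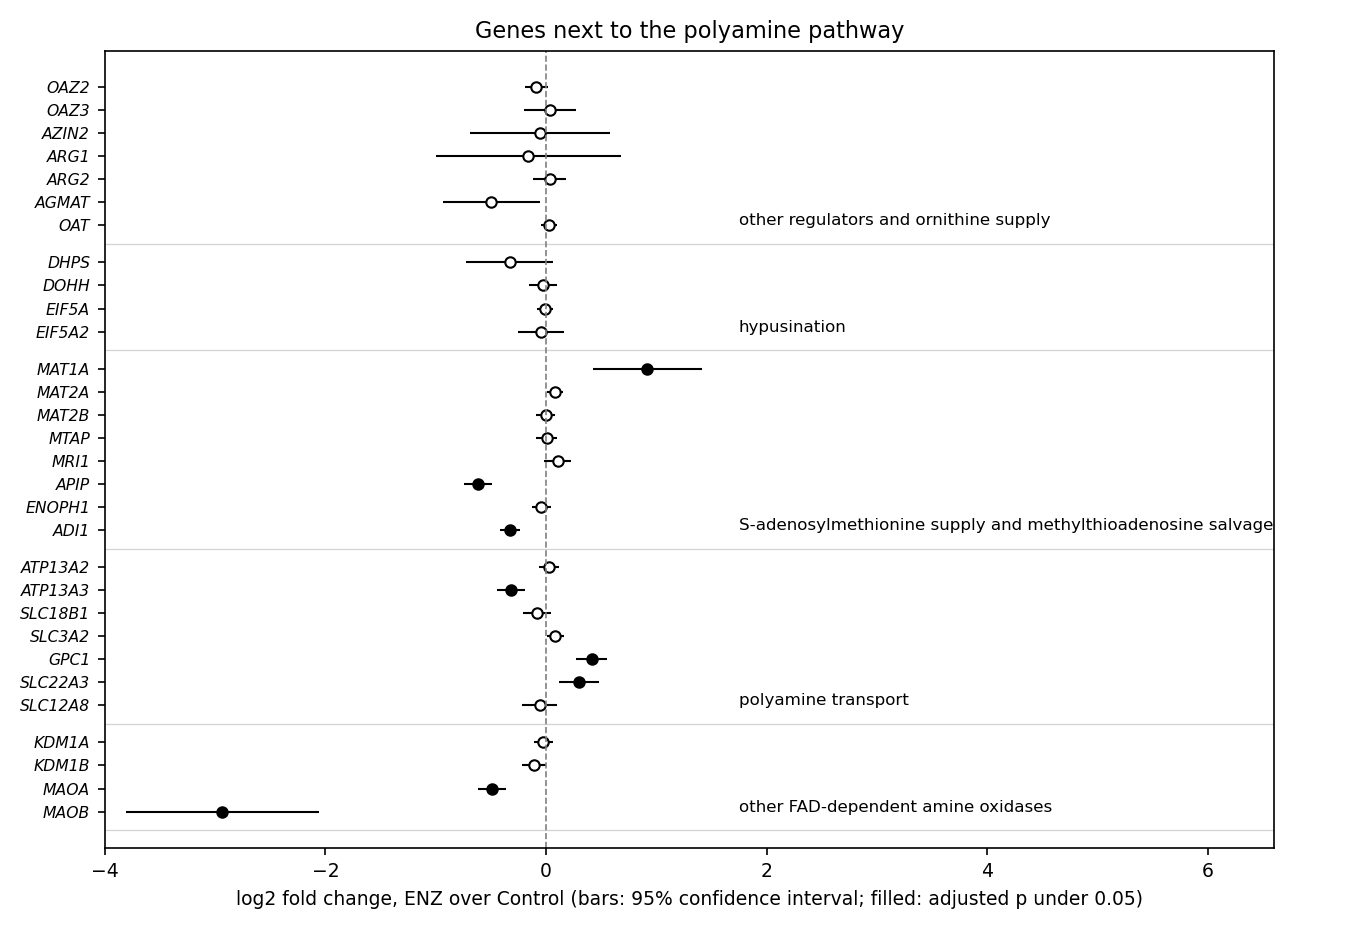
Log2 fold change, ENZ over Control, with 95% confidence intervals, of 30 tested genes around the polyamine pathway in 5 groups; filled points have an adjusted p under 0.05. Most points lie near 0, while APIP, ADI1, ATP13A3, MAOA and MAOB are filled on the left and MAT1A, GPC1 and SLC22A3 on the right.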

How the data were processed

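Libraries were made from poly(A)-selected RNA with a kit that does not mark strand, per the labels' protocols. The authors deposited 2 tables, one of raw counts and one of FPKM for the same genes. Per the submitters' processing notes, the tools were HISAT2 2.0.5, HTSeq 0.6.1 and DESeq2 1.20.0 with GRCh38. The annotation release and strand setting were not found in the labels or headers. Each deposited FPKM value matched the count over a fixed length for that gene and over the total of its library (largest spread 6.34e-06 percent where counts were at least 10). Libraries held 26691289 to 30025543 counts, and a count of 0 allows up to 3 counts, 0.0999 to 0.112 CPM, for counting error only. Libraries of a group differed by more than sampling noise (chi-square per degree of freedom 1.93 to 6.15). Genes without a symbol held 0.834% to 0.917% of counts.

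Groups came from the sample titles. They were compared by the quasi-likelihood F test of edgeR 4.0.16 in R 4.3.3, on group alone, after TMM scaling and the tool's default low-count filter, with robust dispersion and Benjamini-Hochberg adjustment over all genes kept. An SE was taken as the size of a log2 fold change over the root of its F statistic. Alternatives were DESeq2 1.42.0, limma 3.58.1 (voom, and log2 of FPKM plus 1 or 0.1 with a mean of at least 1 FPKM, or unfiltered), other scalings and filters, the replicate number as a block, GC and length offsets (natural splines, 4 degrees of freedom, longest transcript), and each library left out. GC or length offsets alone were added after the data had been seen. Positions, exons and GC content came from GENCODE release 44 (GRCh38). The members, lists and markers were chosen with earlier results of these data known. All members are named, and in each further list up to 2 called genes per direction with the largest change. Other genes of those lists, and CDX1, KRT20 and LUM, were named after their values were seen. CDX2 and CDH5 were not analysed here, and single values of some other markers are not reported here.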

Additional observations from a re-analysis of the deposited data

How the results depend on the processing

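The count of members called was 4 to 6 in all settings, but which members were called changed with the offsets, as given above. The reported 4 of 10 stand beside 7393 of 18581 genes. On filtered log2(FPKM + 1) values 6 of 8 tested members were called, all lower, beside 5397 of 13403 genes. With length offsets alone 6 of 10 were called, 4 lower and 2 higher, beside 7908 of 18581 genes. The count over all tested genes (7393, 3814 higher and 3579 lower) was 3728 on unfiltered log2(FPKM + 1) values, and the split was 5094 higher and 2888 lower with GC offsets alone, 4895 and 3126 with GC and length offsets, 4807 and 3101 with length offsets alone, 3097 and 4104 on library totals alone, and 2526 and 2871 on filtered log2(FPKM + 1). Leaving out 1 library gave 5844 to 8258 genes, 4 or 5 members and 7 to 10 related genes. Related genes called (8) were 5 on unfiltered log2(FPKM + 1), 16 with GC and length offsets and 15 with GC offsets alone. Among the members and related genes called in either of the fits compared, directions turned with GC and length offsets for SAT1 (0.12), AZIN1 (0.0069), MAT2B (0.20), ENOPH1 (0.089) and ATP13A2 (−0.14), and with GC offsets alone for AZIN1 (0.031), EIF5A2 (0.25), MAT2B (0.22) and ATP13A2 (−0.10). SRM was called in 6 of 19 alternatives, SMS (higher), PAOX (higher) and SAT1 (2 lower, 1 higher) in 3 each. Uncalled estimates near 0 also turned, such as SAT2 (−0.0073 with GC and length offsets) and SAT1 (0.059 with GC offsets alone). The cause of these changes was not tested. Same-numbered Control and ENZ libraries deviated from their group means with correlations of −0.05 to 0.02, and the labels give no pairing. With the replicate block 7466 genes, 5 members and 8 related genes were called, PAOX being the added member (0.56, adjusted p = 0.0462). Among the members, depth limits SMOX and PAOX most, at under 60 counts per library.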
